A study of Mus musculus with 2 samples.

Results

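The genes described here are the 9 mouse genes for cyclin-dependent kinase (CDK) inhibitors and retinoblastoma (RB) family proteins: Cdkn2a, Cdkn2b, Cdkn2c, Cdkn1a, Cdkn1b, Cdkn1c, Rb1, Rbl1 and Rbl2. They were chosen by name, as the probe sets annotated to 1 of these symbols alone, which gave 16 probe sets for 9 of the 18193 genes on the array. A total of 8 were above background on at least 1 array; Cdkn1c was not. RNA came from 1 culture each of MS-1, an endothelial line from mouse pancreatic small vessels, and SVEC4-10, a line labelled as endothelial from an axillary lymph node, both immortalised with the SV40 large T antigen. MS-1 was kept in DMEM with 5% fetal calf serum and SVEC4-10 in DMEM with 10%, for 3 to 5 days until confluent, at passage 5 or below. Serum and line therefore cannot be told apart. Each line was measured on 1 Affymetrix array, so replicate spread is unknown and no test was made.

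CDK inhibitors stop the kinases that drive cells from G1 into S phase. The INK4 proteins (from Cdkn2a, Cdkn2b and Cdkn2c) bind CDK4 and CDK6, and the Cip/Kip proteins (from Cdkn1a, Cdkn1b and Cdkn1c) bind cyclin-CDK complexes, chiefly those of CDK2. The RB proteins (from Rb1, Rbl1 and Rbl2) hold E2F transcription factors in a repressed state until CDKs phosphorylate them. Large T binds the RB proteins and p53, the activator of Cdkn1a. Large T itself was not analysed here.

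The array labelled SVEC4-10 differed from MS-1 in cell type markers as well as in the genes described here. Of the 15 endothelial markers listed, 13 were at background in SVEC4-10 and 1 in MS-1, with summed signals of 151 and 29885. Pecam1, Cdh5 and Tie1, which define endothelium, were among those at background in SVEC4-10. The summed signal of the 10 mesenchymal markers, 9 of them measured, was 34368 in SVEC4-10 and 146 in MS-1, and that of 5 mesothelial markers was 14648 and 58.2. In MS-1, 8 of the 10 mesenchymal markers were at background, Dcn and Col1a1 among them. Of the lymphatic endothelial markers, Lyve1 was at least 70.9-fold higher in MS-1, Flt4 was 2.14-fold higher in MS-1 and Pdpn was 7.43-fold higher in SVEC4-10, while Prox1 was not above background in either. Leukocyte markers had summed signals of 3952 in MS-1, of which Cd68 alone gave 3645, and 77.8 in SVEC4-10. Cd68 was 79.4-fold and Lcp1 at least 12.1-fold higher in MS-1, and Ptprc and Cd3e were not above background in either. Epithelial markers had summed signals of 409.7 and 381, but single markers differed in opposite directions. Krt18 was 8.21-fold and Krt19 at least 6.85-fold higher in MS-1, while Krt8 was 5.20-fold and Krt7 at least 12.5-fold higher in SVEC4-10. The other 2 measured epithelial markers were under 2-fold apart. The part of cell identity in the results below was not tested. Signal is the deposited probe set intensity in arbitrary units, and background was 16.3 in MS-1 and 17.6 in SVEC4-10. Signals of different probe sets are not comparable with each other, only the same probe set between the arrays. A summed signal is therefore weighted to its brightest probe sets.

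A pair of the 9 genes stood far apart between the lines, in opposite directions. Cdkn2a was at least 20.7-fold higher in SVEC4-10, and Cdkn1a was 4.66-fold higher in MS-1. At the probe set used for each gene, the 6 other measured members were all higher in SVEC4-10, by only 1.58- to 1.89-fold. Of all measured genes, 50.9% were higher in SVEC4-10 by any amount. A second, dimmer probe set of Rbl1 was 1.16-fold higher in MS-1. At a threshold of 2-fold, 1 of 8 measured members was higher in SVEC4-10, where 15.1% of all measured genes were, and 1 in MS-1, where 12.0% of all genes were. The same 2 genes passed 4-fold, a size reached by 5.60% of genes on the SVEC4-10 side and by 4.20% on the MS-1 side. In either direction 2 of 8 members passed 2-fold, against 27.1% of all genes, and 2 passed 4-fold, against 9.80%. The count at 2-fold is near that of genes in general and is not a result about the members. The error of a log2 ratio, estimated from how far different probe sets for a gene disagree (SD), was 0.49 (4406 genes), and was 0.57 in the lowest and 0.42 in the highest of 3 classes of signal. This error holds no variation between cultures.

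**Figure D1:**
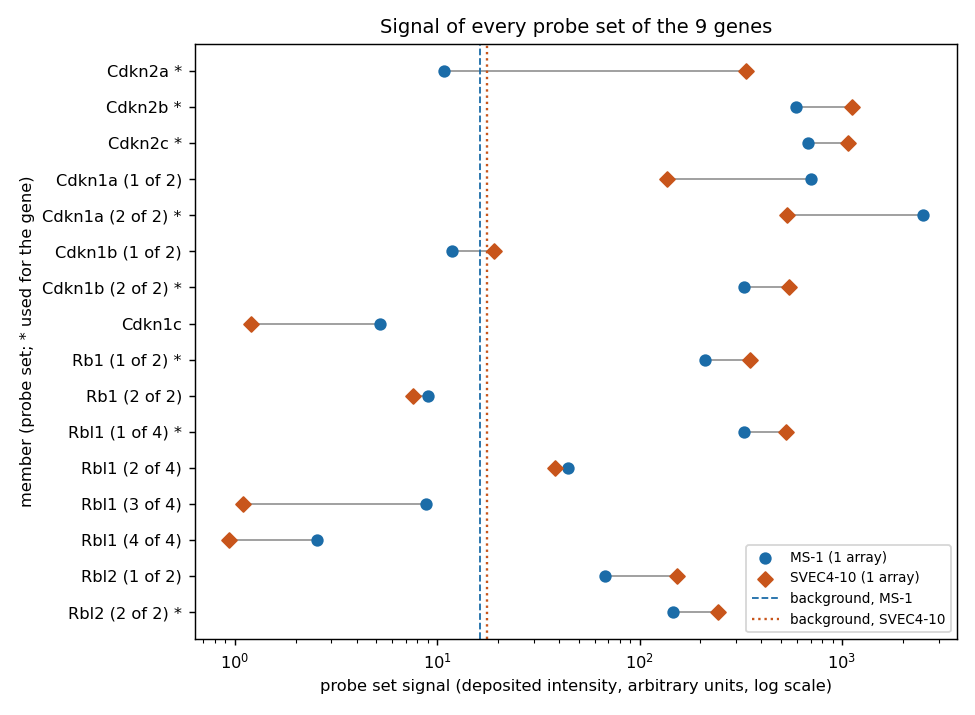
Deposited signal (log axis) of all 16 probe sets of the 9 genes in MS-1 (blue circles) and the SVEC4-10 array (orange diamonds), with the background of each array as a vertical line and an asterisk at the probe set used for each gene. The Cdkn2a circle lies left of both background lines at 10.8 while its diamond lies at 337, and for Cdkn1a the circles lie right of the diamonds at both probe sets.

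Cdkn2a encodes from overlapping exons the INK4a inhibitor and, from an upstream first exon read in another frame, the ARF protein, which stabilises p53 by binding Mdm2. Its only probe set had a signal of 10.8 in MS-1, below background, and 337 in SVEC4-10, which is 19.1 times background. The arrays thus lay on either side of background. The log2 ratio of 4.37 (SVEC4-10 over MS-1) is a lower bound, since the MS-1 signal was raised to background. The ratio depends on the background chosen, and it moved between 3.37 with the background doubled and 4.96 with no floor. The error of 0.49 comes from genes above background on both arrays, so it does not describe this bound. The probe set is of a class that matches several transcripts of 1 gene, so INK4a and ARF cannot be told apart by it.

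The sequences upstream of both Cdkn2a starts are shown because they belong to these separate transcripts, together with that of Cdkn2b, its nearest measured neighbour. Each is the 250 bases before a RefSeq start in GRCm38.p6, 5′ to 3′ on the minus strand. The window of the distal Cdkn2a start, of ARF, is chr4:89294620-89294869, that of the proximal start, of INK4a, is chr4:89282193-89282442, and that of Cdkn2b is chr4:89311033-89311282. Capitals mark an E2F motif in the distal Cdkn2a window and a CHR motif in that of Cdkn2b.
Cdkn2a distal: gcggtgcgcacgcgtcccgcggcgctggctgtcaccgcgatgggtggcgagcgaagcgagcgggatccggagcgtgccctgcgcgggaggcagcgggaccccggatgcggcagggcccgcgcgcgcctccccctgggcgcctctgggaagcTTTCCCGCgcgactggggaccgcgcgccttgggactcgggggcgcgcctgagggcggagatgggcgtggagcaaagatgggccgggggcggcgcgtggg
Cdkn2a proximal: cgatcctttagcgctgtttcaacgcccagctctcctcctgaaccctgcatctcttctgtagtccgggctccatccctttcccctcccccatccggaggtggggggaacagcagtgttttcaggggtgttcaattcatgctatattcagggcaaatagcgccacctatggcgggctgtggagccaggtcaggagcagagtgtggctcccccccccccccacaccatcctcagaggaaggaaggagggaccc
Cdkn2b: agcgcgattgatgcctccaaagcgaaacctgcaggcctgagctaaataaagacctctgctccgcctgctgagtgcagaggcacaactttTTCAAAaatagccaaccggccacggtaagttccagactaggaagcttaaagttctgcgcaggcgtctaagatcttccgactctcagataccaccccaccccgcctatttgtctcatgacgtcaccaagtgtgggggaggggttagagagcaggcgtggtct

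The E2F motif was searched on both strands as TTTCCCGC, TTTCGCGC, TTTGCCGC or TTTGGCGC. The distal Cdkn2a window held 1 match, beginning 99 bases before the start, and the proximal window held none. The bases C and G made up 78.4% of the distal window, 60.0% of the proximal window and 53.6% of that of Cdkn2b. Of 32851 RefSeq windows of this length, 1.86% held an E2F match. The CHR motif, the element bound by the MuvB core of DREAM, was searched as TTTGAA and on the other strand, and was matched once in the Cdkn2b window, against 16.0% of all windows. A match is a description of the letters and does not show that a factor binds there.

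Cdkn2b, which encodes the INK4b inhibitor induced by TGF-beta, lies near Cdkn2a. It had signals of 593 in MS-1 and 1120 in SVEC4-10. Its log2 ratio of 0.92 is 1.89-fold and 1.87 times the error, and 83.4% of all measured genes had a lower ratio. Cdkn2b was thus well above background in both lines, at 36.4 and 63.6 times background, while Cdkn2a was above background only in SVEC4-10. On the other side of Cdkn2a, Mtap, a methionine salvage enzyme, had signals of 1136 and 1141, a log2 ratio of 0.01, although its 4 probe sets ran from -0.02 to 0.75.

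Cdkn2c encodes the INK4c inhibitor. Its signals were 681 in MS-1 and 1073 in SVEC4-10, a log2 ratio of 0.66, or 1.34 times the error. Cdkn2d, the remaining INK4 gene, which is not among the 9, had signals of 508 and 589 and a log2 ratio of 0.22, within the error. No INK4 gene other than Cdkn2a was 2-fold apart.

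The Cip/Kip genes did not share a direction. Cdkn1a, which encodes p21 and is the best known target of p53, had signals of 2507 in MS-1 and 538 in SVEC4-10 at the probe set used for the gene. The second probe set had signals of 706 and 136. Both were above background on both arrays and both were higher in MS-1. The log2 ratios were -2.22 and -2.37, folds of 4.66 and 5.17, and the first is 4.53 times the error. Of all measured genes, 458 had a ratio this low or lower, Cdkn1a included. In SVEC4-10 the signals of Cdkn1a were 30.5 times background at the probe set used and 7.74 times at the second.

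The upstream sequence of the distal Cdkn1a start is shown because this gene lies next to p53 in the pathway. It runs 5′ to 3′ on the plus strand of GRCm38.p6 at chr17:29090729-29090978, and capitals mark matches to the p53 half-site consensus.
Cdkn1a distal: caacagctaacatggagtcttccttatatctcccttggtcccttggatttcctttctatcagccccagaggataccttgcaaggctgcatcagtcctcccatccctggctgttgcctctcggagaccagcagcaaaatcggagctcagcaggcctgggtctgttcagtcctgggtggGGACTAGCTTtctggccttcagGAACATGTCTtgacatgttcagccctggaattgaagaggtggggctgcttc

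The window held 2 matches to the p53 half-site, beginning 73 and 51 bases before the start, and they do not overlap. The consensus is a palindrome, so both strands give the same matches, and 7.13% of all windows held at least 1. The window before the proximal Cdkn1a start held none, but held 2 matches to the GC box, GGGCGG on either strand, which 32.7% of all windows hold. Of the 7 members with a RefSeq entry, Cdkn1a alone had a p53 half-site match in a window, and Cdkn2a and Rbl1 had an E2F match. Cdkn1c and Rb1 had no entry in the sequence table.

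Cdkn1b, which encodes p27, an inhibitor that is high in resting cells, had signals of 328 in MS-1 and 550.1 in SVEC4-10. The log2 ratio was 0.75, a 1.68-fold difference. Its second probe set was near background, with signals of 11.8 and 19.2, and gave a lower bound of 0.23. Both probe sets were higher in SVEC4-10, and the brighter one was under 2-fold apart. Cdkn1c, which encodes p57 and is expressed from the maternal allele, had signals of 5.22 in MS-1 and 1.20 in SVEC4-10, both below background, and no fold is given.

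The RB genes were close to each other in their ratios at the probe set used for each gene. Over all their measured probe sets, log2 ratios ran from -0.22 (Rbl1) to 1.19 (Rbl2). Rb1, the retinoblastoma tumour suppressor, had signals of 211 in MS-1 and 350.1 in SVEC4-10, a log2 ratio of 0.73. Its second probe set was below background on both arrays. Rb1 thus rests on 1 probe set, as do Cdkn2a, Cdkn2b and Cdkn2c.

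Rbl1 encodes p107, a pocket protein that is itself an E2F target. Its main probe set had signals of 329 in MS-1 and 529 in SVEC4-10, a log2 ratio of 0.68. The second had 44.5 and 38.3, a log2 ratio of -0.22, and the other 2 were below background on both arrays. The measured probe sets of Rbl1 therefore disagreed in sign, and its direction rests on the brighter one. The E2F match upstream of Rbl1 began 18 bases before the start.

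Rbl2 encodes p130, the pocket protein of the DREAM complex that represses cell cycle genes in resting cells. The probe set used for the gene had signals of 147 in MS-1 and 245 in SVEC4-10, a log2 ratio of 0.74. The second had 67.3 and 153, a log2 ratio of 1.19. Both Rbl2 probe sets were higher in SVEC4-10, but only the dimmer one was more than 2-fold apart.

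The 6 members between the extremes had log2 ratios from 0.66 to 0.92, or 1.34 to 1.87 errors each. A ratio of at least 0.66 was found for 22.7% of all measured genes. These limits were read from the members themselves. The median log2 ratio of the 8 measured members was 0.74, against 0.018 for all measured genes. Scaling the arrays to the poly-A control transcripts, which were 1.43-fold higher in SVEC4-10, lowers every ratio by 0.51. That shift is the median of 21 control probe sets, whose log2 ratios ran from 0.28 to 0.89. With it, the 6 genes ran from 0.14 to 0.41 and the median of the members was 0.22, against -0.495 for all genes. The highest control ratio is above the deposited ratio of each of the 6 genes except Cdkn2b. Under the poly-A scaling Cdkn2a stayed at 3.86 and Cdkn1a at -2.73. Of the genes at least 2-fold apart, 1060 were then higher in SVEC4-10 and 3185 in MS-1, against 1904 and 1506 as deposited.

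**Figure D2:**
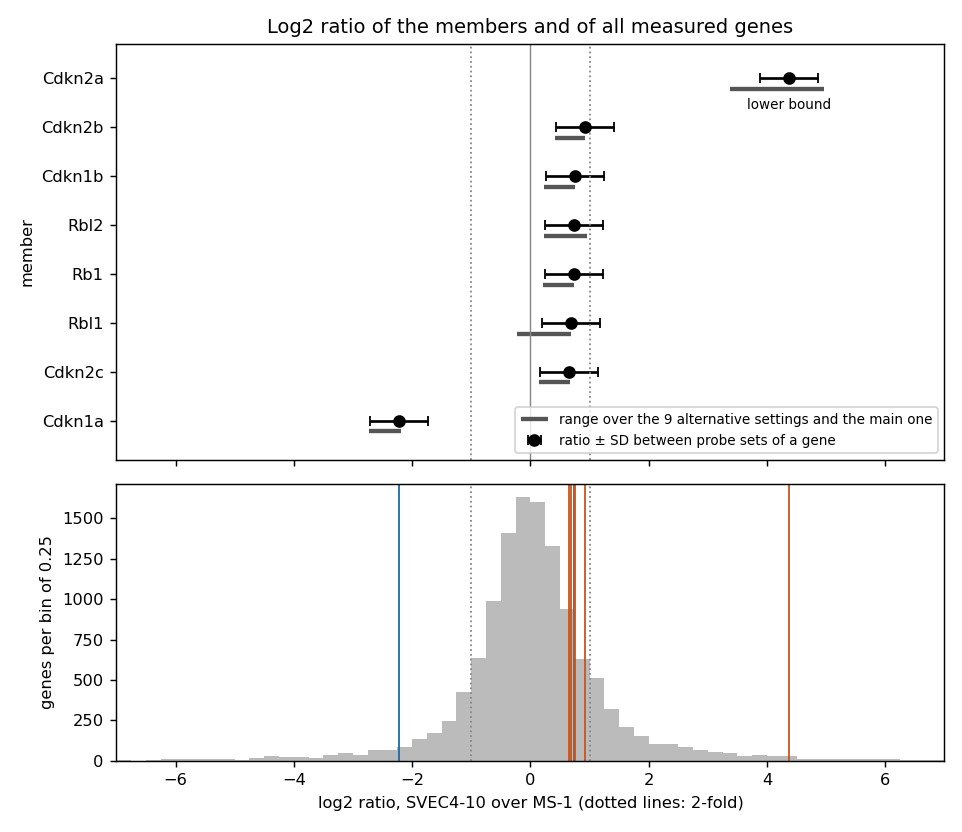
The upper panel shows the log2 ratio (SVEC4-10 over MS-1) of the 8 measured members with the standard deviation between probe sets of a gene (0.49) as error bar, and below each point a bar for its range over the main and 9 alternative settings. The lower panel shows the distribution over 12583 measured genes with the members as vertical lines: Cdkn2a at 4.37 and Cdkn1a at -2.22 lie in the tails, and the other 6 lie between 0.66 and 0.92. The Cdkn2a point is a lower bound, which its error bar does not describe.

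The lists of pathway genes that follow held 180 measured genes, of which 22 were at least 2-fold higher in SVEC4-10 and 21 in MS-1, where 15.1% and 12.0% of all measured genes were. With poly-A scaling these counts became 7 and 47, where 1060 and 3185 of all 12583 measured genes were. The poly-A counts of each list below are to be set beside those of all genes, not beside 15.1% and 12.0%. The medians of all 11 lists were then negative, between -1.08 and -0.19, as was that of all measured genes, at -0.495. The kinases and cyclins that the inhibitors act on were divided in direction. Of 17 measured cyclin, CDK and CDC25 genes, 5 were at least 2-fold higher in SVEC4-10, 2 in MS-1 and 10 in neither, and the list's median log2 ratio was 0.20. Ccnd1, which encodes cyclin D1, the partner of CDK4 and CDK6, had signals of 6960 in MS-1 and 167 in SVEC4-10, a 41.7-fold difference, and its 3 probe sets ran from -5.38 to -4.81. Ccnd2, cyclin D2, had 4397 and 1606, 2.74-fold higher in MS-1, and Ccnd3 had 819.8 and 723. Both D cyclins that were 2-fold apart were higher in MS-1. A relation to Cdkn2a, which was at background in MS-1, was not tested.

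Cdk4, the kinase that INK4 proteins block, had signals of 1814 in MS-1 and 4227 in SVEC4-10, a log2 ratio of 1.22. Cdk6, its paralogue, had 453 and 522, a log2 ratio of 0.20. Cdk2, the main kinase bound by p21, had 269.7 and 577, a log2 ratio of 1.10. These kinases were all brighter in SVEC4-10 as deposited, with Cdk6 within the error and turning negative under poly-A scaling. Of the CDK-activating kinase, Cdk7 had a log2 ratio of 1.45 and its cyclin Ccnh 1.43, but the other subunit, Mnat1, had -0.12. The 5 probe sets of Cdk7 ran from 0.46 to 2.43. Under poly-A scaling, 0 of the 17 genes were at least 2-fold higher in SVEC4-10 and 5 in MS-1.

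Most E2F factors and targets were within 2-fold, as most genes were. Of 17 measured E2F, DP and DREAM subunits, 2 were at least 2-fold higher in SVEC4-10 and 1 in MS-1, and the list's median was 0.23. Under poly-A scaling the counts were 1 and 5. Tfdp2, a DP partner of E2F, had signals of 85.0 in MS-1 and 302 in SVEC4-10, and Mybl1 had 24.0 and 56.1. E2f6, a repressor that does not bind RB proteins, had 535 and 161, although another of its probe sets gave -0.61. E2f1, the activator held by Rb1, had 276 and 193, a log2 ratio of -0.51 with probe sets from -0.85 to 0.05, and E2f4, the partner of p130, had 180.2 and 105, a log2 ratio of -0.78. Neither was 2-fold apart.

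Among E2F targets of G1 and S phase, 2 of 24 were at least 2-fold higher in SVEC4-10 and 2 in MS-1, and the list's median was 0.16, with counts of 0 and 3 under poly-A scaling. Rfc4, a clamp loader subunit, and Chaf1b, a histone chaperone subunit, had log2 ratios of 1.24 and 1.04, the latter with a second probe set at -0.84. Rrm2, the small subunit of ribonucleotide reductase, and Pole, a replicative polymerase, had -1.35 and -1.24. Pcna, the replication clamp, had signals of 7241 in MS-1 and 7639 in SVEC4-10. Of 21 mitotic genes bound by DREAM, 1 was higher in SVEC4-10 and 3 in MS-1, and the list's median was -0.13, with counts of 0 and 5 under poly-A scaling. Those apart as deposited were Kif20a at 1.06, and Kif23, Cenpf and Foxm1 at -1.18, -1.14 and -1.04, although another Cenpf probe set gave -0.05. Mki67, a marker of cycling cells, had signals of 1035 in MS-1 and 659 in SVEC4-10, a log2 ratio of -0.65. All 24 and all 21 measured genes of these target lists were above background on both arrays.

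Proteins that work with RB included 4 of 15 genes at least 2-fold higher in SVEC4-10 and 0 in MS-1, and the list's median was 0.04. Under poly-A scaling the counts were 2 and 2, where 1060 and 3185 of all 12583 measured genes were. Arid4b and Kdm5a, which bind RB and act on chromatin, had log2 ratios of 2.13 and 1.56, with a lowest probe set at 1.36 for Arid4b and at 0.86 for Kdm5a. Hdac1 and Hdac3, histone deacetylases, had 1.10 and 1.01, and were under 2-fold with poly-A scaling (0.58 and 0.49).

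**Figure D3:**
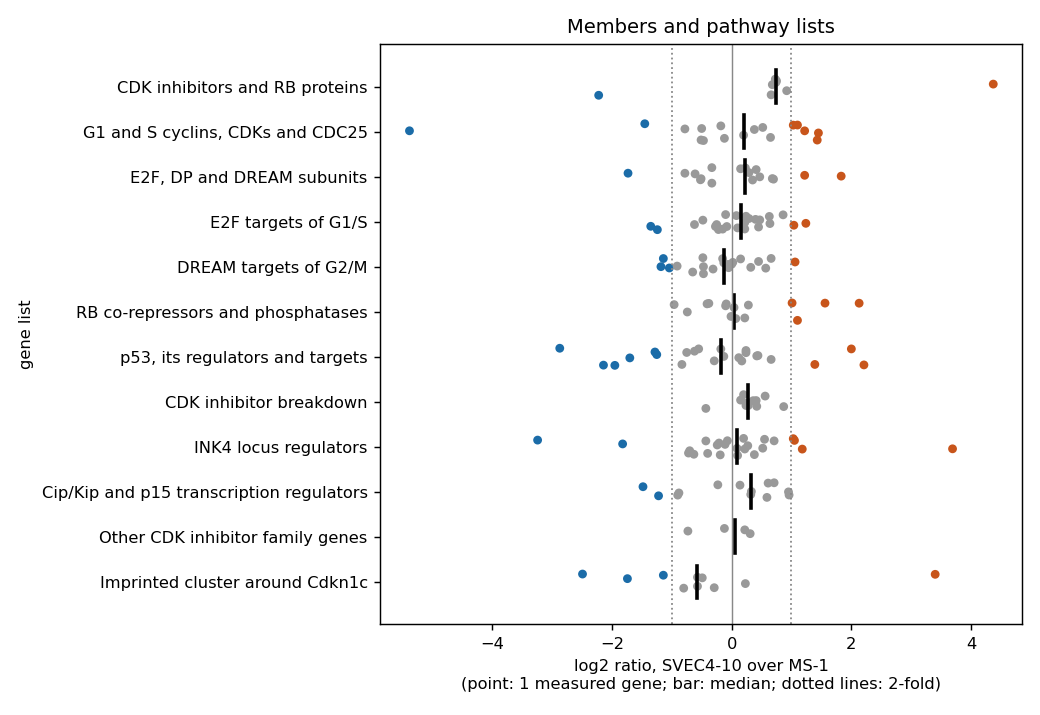
Log2 ratio (SVEC4-10 over MS-1) of each measured gene in the members' row and in 11 pathway lists, with a bar at each median; orange points are at least 2-fold higher in SVEC4-10, blue points in MS-1 and grey points in neither. The medians of the pathway lists lie between -0.57 and 0.32, and the members' median lies at 0.74.

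Genes of the p53 response were divided in direction. Of 23 measured, 6 were at least 2-fold higher in MS-1, 3 in SVEC4-10 and 14 in neither, and the list's median was -0.18. Eda2r, a death receptor family member, had signals of 489 in MS-1 and 66.8 in SVEC4-10, a log2 ratio of -2.87. Zmat3, an RNA-binding p53 target, had 444 and 101, a log2 ratio of -2.14. Phlda3, Plk3, Aen and Btg2 completed the 6 with log2 ratios of -1.95, -1.70, -1.28 and -1.25, although the 4 probe sets of Aen ran from -1.28 to -0.38. These genes were higher on the same array as Cdkn1a.

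Other p53 targets were higher on the opposite array. Sesn1, a stress-response sestrin, had signals of 91.8 in MS-1 and 424 in SVEC4-10, a log2 ratio of 2.21. Fas, the death receptor, had 40.3 and 161, a log2 ratio of 2.00, and Ddb2, a DNA damage sensor, had 56.3 and 148, a log2 ratio of 1.39. Mdm2, the p53 ubiquitin ligase that is itself a p53 target, had 932 and 607, a log2 ratio of -0.62, with -1.38 at its second probe set. Trp53 was not analysed here. Poly-A scaling left 2 genes at least 2-fold higher in SVEC4-10 and 10 in MS-1.

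Genes that break down CDK inhibitors were within 2-fold as deposited. None of 11 measured genes was 2-fold apart in either direction, and the median of 0.28 became -0.23 under poly-A scaling. Skp2, the F-box protein that marks p27 for destruction, had signals of 439 in MS-1 and 587 in SVEC4-10, a log2 ratio of 0.42. Its cofactor Cks1b had a log2 ratio of 0.20.

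Regulators of the INK4 locus were divided in direction. Of 25 measured, 4 were at least 2-fold higher in SVEC4-10, 2 in MS-1 and 19 in neither, and the list's median was 0.09. Under poly-A scaling 1 was higher in SVEC4-10 and 5 in MS-1. Bmi1, the Polycomb protein known for repressing Cdkn2a, had signals of 1163 in MS-1 and 860.0 in SVEC4-10, a log2 ratio of -0.43, with 0.20 at its other probe set. Ezh2, the Polycomb methyltransferase, had 876 and 932, a log2 ratio of 0.09. Both were within the error. Twist1, a mesenchymal transcription factor, had 10.4 and 210.5 and was at least 12.9-fold higher in SVEC4-10. Hmga2, a chromatin protein that represses the INK4 locus in stem cells, had 4768 and 506, a log2 ratio of -3.24, and its 4 probe sets ran from -4.63 to -0.53. Tbx3, a T-box repressor of ARF, had 62.4 and 7.12 and was at least 3.54-fold higher in MS-1 by the probe set used, with another at -0.04. Jarid2, a Polycomb cofactor, had a log2 ratio of 1.18, and 0.41 at another probe set. Cbx8 and Id1 completed the 4 genes higher in SVEC4-10, with log2 ratios of 1.05 and 1.03, although another Cbx8 probe set gave -0.27.

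Of 13 measured transcription factors that act on the Cip/Kip genes and Cdkn2b, 0 were at least 2-fold higher in SVEC4-10 and 2 in MS-1, and the list's median was 0.32, with counts of 0 and 4 under poly-A scaling. Klf4, an activator of Cdkn1a, had signals of 804 in MS-1 and 289 in SVEC4-10, a log2 ratio of -1.48. Myc, which represses Cdkn1a and Cdkn2b, had 411 and 176, a log2 ratio of -1.22. Both were higher in MS-1, as Cdkn1a was. Cdkn3, a phosphatase of CDK2 named with the inhibitors, had signals of 606 and 366, a log2 ratio of -0.73.

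The chromosomal neighbours of the members mostly had other ratios. Srsf3 and Cpne5, the nearest measured genes on either side of Cdkn1a, had log2 ratios of 0.18 and 0.11, against -2.22 for Cdkn1a, with Srsf3 ranging from -0.77 to 1.39 over 6 probe sets. Lpar6, a lysophosphatidic acid receptor gene that lies inside Rb1 in the RefSeq annotation, had signals of 804 in MS-1 and 192 in SVEC4-10. It was 4.18-fold higher in MS-1, where its host Rb1 was lower. Samhd1, next to Rbl1, had a log2 ratio of 1.78 at the probe set used, with its 4 measured probe sets running from -0.36 to 1.78. Around Cdkn1b, Lockd and 2810454H06Rik were close to background, with log2 ratios of -0.36 and 0.07. Those of Faf1 and 9630013D21Rik beside Cdkn2c were -0.60 and 0.82. Rcbtb2, beside Rb1, had a log2 ratio of -0.59, with another probe set at 1.38, and Rpn2, beside Rbl1, had -0.31. Chd9 and Aktip, the neighbours of Rbl2, had -0.25 and 0.25. Zfp352, beside Cdkn2b, was close to background at -0.05.

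**Figure D4:**
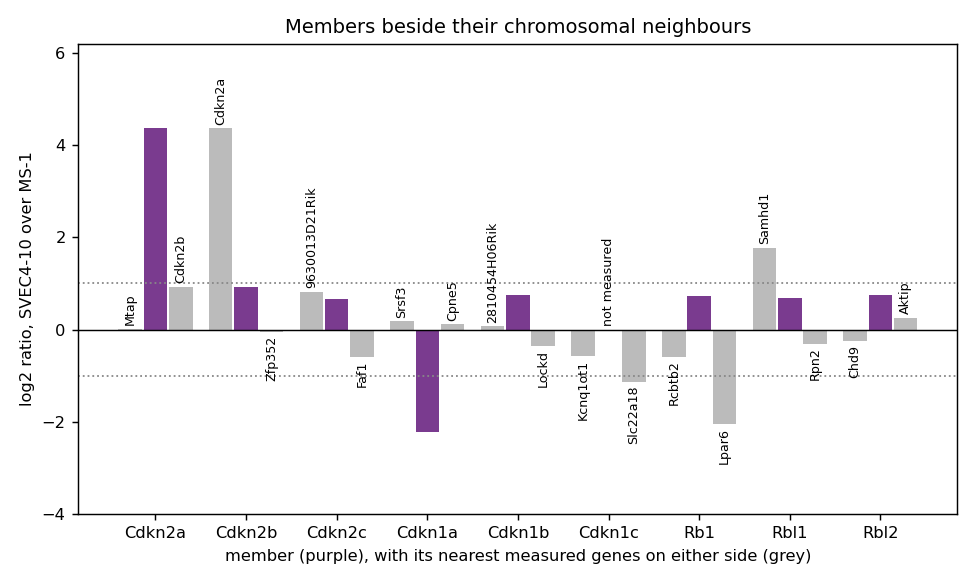
Log2 ratio (SVEC4-10 over MS-1) of each member (purple bars) and of the nearest measured gene on either side of it in RefSeq order (grey bars, named); Cdkn1c was not measured. The Cdkn2a bar reaches 4.37 between Mtap at 0.01 and Cdkn2b at 0.92, and the Cdkn1a bar reaches -2.22 between neighbours at 0.18 and 0.11.

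Cdkn1c belongs to an imprinted cluster, and although it was not measurable, other genes of the cluster were. Of 10 measured, 1 was at least 2-fold higher in SVEC4-10 and 3 in MS-1, and the list's median was -0.57, with counts of 1 and 7 under poly-A scaling. Igf2, a growth factor expressed from the paternal allele, had signals of 9.09 in MS-1 and 172 in SVEC4-10 and was at least 10.5-fold higher on the latter. Kcnq1, a potassium channel, had 98.8 and 3.86 and was at least 5.61-fold higher in MS-1. Cars, a tRNA synthetase, had 926 and 277, a log2 ratio of -1.74, and Slc22a18 had 38.8 and 4.99, at least 2.20-fold higher in MS-1, with -0.46 at its second probe set and -0.14 with the background doubled. Kcnq1ot1, the antisense RNA that silences Cdkn1c and some genes near it on the paternal allele, had signals of 36.8 and 24.9. Its log2 ratio was -0.57, with -1.42 at another probe set. Phlda2, a neighbour on the other side, was at background on both arrays like Cdkn1c.

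With 2 arrays, likeness of pattern is only closeness of log2 ratio, and it can be read only where both arrays were above background. The pathway gene closest to Cdkn1a was Zmat3 at -2.14, which differed from it by 0.08. Zmat3 was picked as the nearest of 180 measured pathway genes, and this difference is below the error of 0.49. Shared regulation was not tested. Kcnq1 was the next by its floored ratio, but that ratio is a bound set by the background in SVEC4-10. For Cdkn2a no likeness is given, because its ratio and those of Twist1 and Igf2, the nearest by floored value, are all bounds set by the background in MS-1.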

How the data were processed

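Per the labels' protocols, 6 µg of Trizol-extracted total RNA from 1 culture of each line was made into biotinylated cRNA for an Affymetrix array. The values deposited by the authors are linear intensities, 1 per probe set; the summary method is not given in the sources used here. Both arrays had a 2%-trimmed mean of 150.0 and were used as deposited. Of 45101 probe sets, 34945 had 1 gene in the platform annotation, and 34741 of these were renamed by gene identifier through RefSeq (GRCm38.p6). The background of an array was set at percentile 95 of the 129 probe sets for olfactory, vomeronasal, taste receptor and keratin-associated genes. Values were raised to background before log2 ratios were taken, and a gene was measured if any probe set exceeded background (12583 genes). Each gene was represented by its brightest measured probe set (mean log2 signal), outside the cross-hybridising class where possible. The 3'/5' ratio of Gapdh was 0.809 in MS-1 and 0.812 in SVEC4-10. The number of arrays limits the precision. Named were all members, up to 4 genes per pathway list with the largest ratio of at least 2-fold, 21 fixed genes and nearest measured neighbours. Of the fixed genes, H19 had no probe set annotated to it alone and is not described. Ccnd3, Mnat1, Cks1b, Ddb2, Phlda3, Plk3, Aen, Btg2, Cbx8 and Id1 were added after their values were seen. The members and lists were chosen with earlier results of these data known. The steps were tested on simulated data. Python 3.11.15 and pandas 2.3.3 were used. Alternatives were 3 normalizations, 3 backgrounds, 3 choices of probe set and thresholds of 4-fold and 8-fold.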

Additional observations from a re-analysis of the deposited data

How the results depend on the processing

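Cdkn2a and Cdkn1a kept their direction and stayed at least 2-fold apart under all 9 alternative settings, with log2 ratios from 3.37 (background doubled) to 4.96 (no background floor) and from -2.73 (poly-A scaling) to -2.19 (quantile normalization). The other 6 members were under 2-fold in every one of these settings, and only Rbl1 changed sign, to -0.22 with the probe set of smallest ratio. Cdkn2a, Cdkn2b, Cdkn2c and Rb1 had 1 measured probe set each, so the 3 choices of probe set could not move them. No setting used the dimmer Rbl2 probe set alone, whose log2 ratio was 1.19. Scaling to the poly-A controls moved the median of the members to 0.22 and the genes at least 2-fold apart from 1904 to 1060 on the SVEC4-10 side and from 1506 to 3185 on the MS-1 side. A threshold of 4-fold gave 705 and 528 genes, and 8-fold gave 342 and 279, with 0 members higher on the MS-1 array at 8-fold and Cdkn2a still past it. Below background only a bound can be given, which limits Cdkn2a in MS-1 and Cdkn1c in both lines. No paired analysis was possible because each line has 1 array.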
